A study of Mus musculus with 4 samples.

Results

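The 10 genes described here are the 9 genes of the mouse Hoxd cluster and Evx2, the homeobox gene that lies beside Hoxd13 at one end of it. They were followed through 2 H3K27me3 peak lists in 2 ways, by the rows of the authors' annotated tables that name one of the 10 genes and by every peak between Evx2 and Hoxd1 with 10 kb added on each side, chr2:74642991-74775142 on mm10 (GRCm38). Annotated rows naming a member numbered 40 of 10516 in the list from 500 cells and 24 of 15810 in the list from 15000 cells. The region held 53 of 10223 peaks and 28 of 15282 peaks, respectively.

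H3K27me3 was profiled by CUT&RUN, in which an antibody directs a nuclease to the mark and the released DNA is sequenced, in erythro-myeloid progenitors (EMPs) sorted from the E10.5 yolk sac to look for candidate targets of Ezh2. Both libraries came from C57BL/6 mice whose genotype label reads Ezh2fl/fl; Tie2-Cre+/+ with the words Wild type beside it, and the study treats them as wild type; Tie2-Cre acts in endothelium and the blood cells that derive from it. One library was made from 500 EMPs and the other from 15000 EMPs, each next to an IgG library whose own profile was not used here, and how many yolk sacs were pooled is not given in the sources used here. With 1 library for each cell number there was no replicate check, no test between them was possible, and cell number cannot be told apart from PCR cycles (17 and 16), read length (76 and 59 bp), instrument, or the calling threshold (p 0.01 for 500 EMPs and 0.05 for 15000 EMPs).

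Hox genes encode homeodomain transcription factors that give cells their position along the body axis, and their order on the chromosome follows the order in which they are switched on, from Hoxd1 at the early, anterior end to Hoxd13 at the late, posterior end. The Polycomb enzyme Ezh2 trimethylates lysine 27 of histone H3, and silent Hox clusters are textbook carriers of this mark, often as one long domain rather than as separate peaks. In mammals CpG islands, stretches rich in unmethylated CG dinucleotides, are known as places where Polycomb complexes gather.

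The stretches in front of 5 member genes are shown because they span the cases met in the lists, covered in both, covered with 15000 EMPs only, or covered in neither. Each is the 250 bases before the start given by GENCODE, or before the RefSeq start where that lay further upstream, read from the GRCm38 genome 5′ to 3′ on the plus strand, with every CG dinucleotide in capitals.
Hoxd12 (chr2:74674763-74675012): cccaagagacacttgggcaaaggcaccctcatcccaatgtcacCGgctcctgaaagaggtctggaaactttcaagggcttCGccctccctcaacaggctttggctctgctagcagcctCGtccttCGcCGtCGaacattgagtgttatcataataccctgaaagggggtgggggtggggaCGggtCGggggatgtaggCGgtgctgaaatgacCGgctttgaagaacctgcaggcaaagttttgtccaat
Hoxd11 (chr2:74679307-74679556): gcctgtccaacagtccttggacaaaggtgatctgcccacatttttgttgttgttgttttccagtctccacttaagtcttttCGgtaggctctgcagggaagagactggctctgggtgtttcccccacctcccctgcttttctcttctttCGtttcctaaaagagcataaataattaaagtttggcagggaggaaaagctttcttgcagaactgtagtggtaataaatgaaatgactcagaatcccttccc
Hoxd13 (chr2:74667975-74668224): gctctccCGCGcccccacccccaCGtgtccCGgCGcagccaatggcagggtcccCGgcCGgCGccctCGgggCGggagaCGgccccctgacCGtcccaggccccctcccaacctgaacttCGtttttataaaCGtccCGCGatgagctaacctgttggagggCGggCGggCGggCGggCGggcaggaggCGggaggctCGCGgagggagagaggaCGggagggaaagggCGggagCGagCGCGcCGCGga
Hoxd3 (chr2:74711677-74711926): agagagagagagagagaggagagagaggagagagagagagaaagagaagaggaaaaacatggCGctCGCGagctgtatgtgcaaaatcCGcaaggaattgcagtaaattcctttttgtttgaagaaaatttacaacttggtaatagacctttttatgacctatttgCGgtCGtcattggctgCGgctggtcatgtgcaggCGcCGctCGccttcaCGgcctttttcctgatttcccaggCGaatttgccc
Hoxd1 (chr2:74762730-74762979): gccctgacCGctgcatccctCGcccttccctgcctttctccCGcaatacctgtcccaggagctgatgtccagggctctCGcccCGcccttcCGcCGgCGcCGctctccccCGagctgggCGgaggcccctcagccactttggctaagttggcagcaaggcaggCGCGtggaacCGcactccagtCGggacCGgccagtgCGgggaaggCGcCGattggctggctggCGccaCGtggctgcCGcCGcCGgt
The Hoxd12 and Hoxd11 stretches, with 10 and 2 CG, lay wholly under a peak in both libraries. The Hoxd11 start used here belongs to a noncoding transcript, its coding transcript starts at chr2 position 74682323, also under a peak in both lists, and the RefSeq table holds 2 Hoxd11 promoters, with 4 and 25 CG. The stretch before Hoxd10, not shown, held 20 CG and was covered over 100% in both libraries, so a high CG count did not always go with missing coverage. The Hoxd13 stretch, with 31 CG, was under no peak in either library. It was taken before the RefSeq start, 85 bp upstream of the GENCODE start. A 15000-EMP peak begins 63 bp before the GENCODE start, past the end of this stretch. The Hoxd3 stretch, with 12 CG, was 0% covered with 500 EMPs and 82% with 15000 EMPs, and the Hoxd1 stretch, with 24 CG, was 0% and 100% covered. In the RefSeq table of promoters, 300 bases each, all 10 members matched and held 4 to 37 CG with a median of 20, against a median of 7 over 32851 promoters. As many CG as in the Hoxd13 promoter were found in 5.58% of all promoters, and as many as in the Hoxd1 promoter in 12.9%.

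The Hoxd cluster stood in both libraries as an island of H3K27me3 in a stretch otherwise without peaks. Peaks covered 68.0 kb, 51.5% of the 132 kb region, with 500 EMPs and 107 kb, 81.2%, with 15000 EMPs. Over the whole of chromosome 2, peaks covered 0.326% and 1.2% of the sequence, so that the region, 0.0726% of the chromosome, held 11.5% and 4.9% of its covered bases. The first and last peaks of the region lay 120 kb apart with 500 EMPs and 124 kb apart with 15000 EMPs. Beyond Evx2 the next peak was 515 kb away in the 500-EMP list and 512 kb away in the 15000-EMP list, and beyond Hoxd1 it was 373 and 369 kb away. The closest protein-coding neighbours, Lnpk (chr2:74520291-74579435), which shapes the endoplasmic reticulum, and Mtx2 (chr2:74825803-74878431), a mitochondrial import protein, held 0 covered bases in either library.

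**Figure D1:**
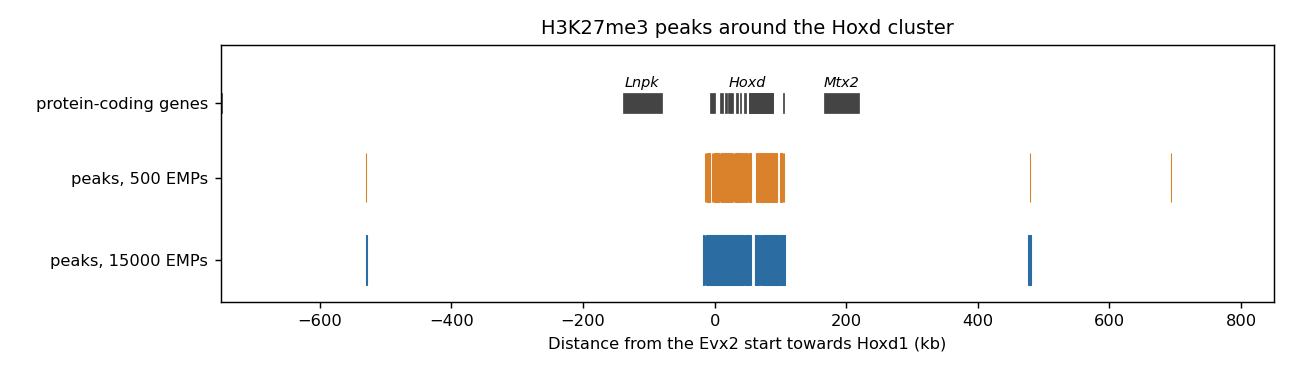
Positions of H3K27me3 peaks from 500 EMPs (orange) and 15000 EMPs (blue) and of protein-coding genes (grey), against the distance in kb from the Evx2 start, with Hoxd1 to the right; narrow peaks are drawn no thinner than the line. Both lists place a block of peaks over the cluster and none over Lnpk or Mtx2, with the next peaks 369 to 515 kb away.

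The edges of the block were not alike on the 2 sides. On the Evx2 side the peaks ran 7819 bp past the end of Evx2 with 500 EMPs and 10317 bp past it with 15000 EMPs. In the 10 kb beside Evx2, 42.6% and 75.4% of the bases were covered. On the Hoxd1 side the last 500-EMP peak ended 158 bp before the end of Hoxd1, and the last 15000-EMP peak ended 1958 bp beyond it. The 10 kb beside Hoxd1 were covered over 0% and 16.8%.

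Within the block the 2 lists differed in how finely it was divided. The 53 peaks from 500 EMPs had a median width of 971 bp, and the 28 peaks from 15000 EMPs had one of 3104 bp. Each of the 53 peaks from 500 EMPs shared 1 bp or more with the 15000-EMP list (100%, 95% Wilson interval 93.2 to 100%, for counting error only and with neighbouring peaks taken as independent), and 44 of them lay wholly inside one. Of the 28 peaks from 15000 EMPs, 21 were met by a 500-EMP peak (75%, interval 56.6 to 87.3%), and 16 of these 21 held at least 2 of them. In the whole lists such overlap was found for 91.2% and 32.2% of peaks. As the 15000-EMP peaks covered 81.2% of the region, an overlap of 1 bp there says little by itself. The bases covered in both lists came to 66240, which was 97.4% of those covered with 500 EMPs and 61.7% of those covered with 15000 EMPs. The 500-EMP peaks thus lay almost entirely within the 15000-EMP peaks but left 41076 of their bases uncovered.

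The widest peak of each list lay in the posterior part of the cluster, between Evx2 and Hoxd11. With 500 EMPs the widest peak, 5761 bp at chr2:74674513-74680273, took in all of Hoxd12 and the start of Hoxd11, and it ranked 18 by width among all peaks of that list. The next, 3208 bp at chr2:74663598-74666805, lay between Evx2 and Hoxd13. With 15000 EMPs the widest peak, 11539 bp at chr2:74656283-74667821, ran from inside Evx2 to just before Hoxd13 and ranked 124. The next, 9472 bp at chr2:74746313-74755784, covered the end of Hoxd3 and part of the noncoding gene Haglr.

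**Figure D2:**
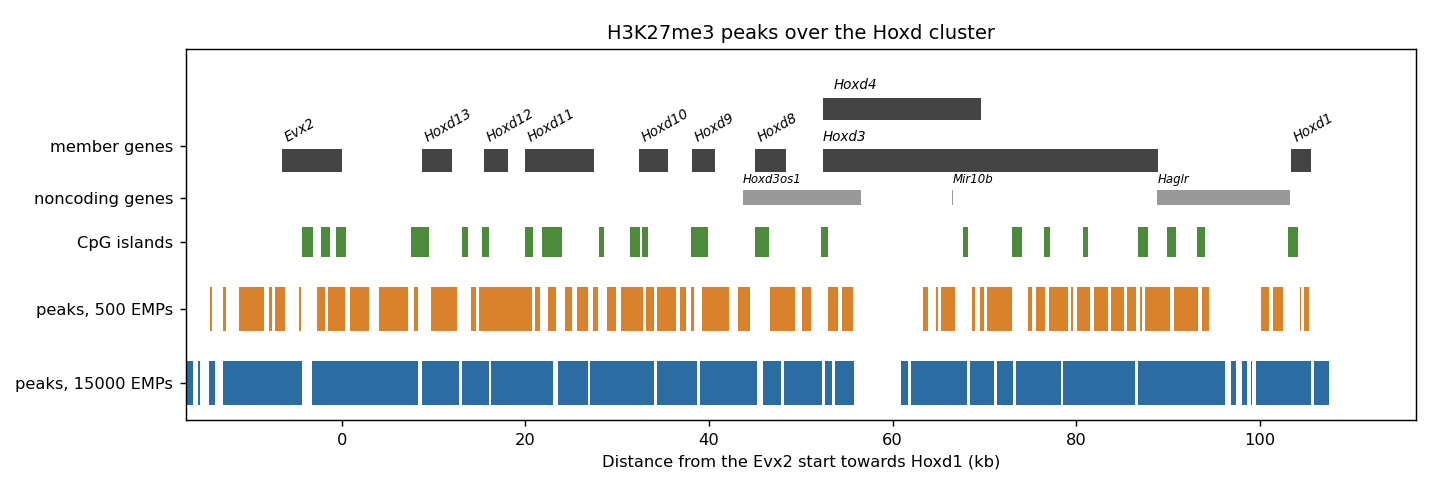
Member genes, 3 noncoding genes, CpG islands and the H3K27me3 peaks of both lists along the cluster, against the distance in kb from the Evx2 start. The 15000-EMP peaks (blue) are separated by narrow breaks, the 500-EMP peaks (orange) by wider ones, and both lists are empty in one stretch of the 5′ part of Hoxd3 and Hoxd4.

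Most breaks between peaks were short. With 15000 EMPs, 24 of 27 breaks were under 1 kb, and joining across them left 4 domains. With 500 EMPs, 37 of 52 were under 1 kb, and 16 domains were left. The longest break was at one place in both lists, within the 5′ part of Hoxd3 and Hoxd4. It was 7651 bp with 500 EMPs and 5208 bp with 15000 EMPs (chr2:74715319-74720526, empty in both), where the GC content was 46.8% and 21.5% of the bases were repeats in the soft-masked genome, against 48.1% and 15.9% in the whole region. A CG count of 0.203 of that expected from its base composition, against 0.45 for the region, also marked this stretch as poor in CG.

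Evx2 (ENSMUSG00000001815, chr2:74652991-74659557, minus strand), a homeobox gene of the even-skipped family, had its start under a peak in both lists. Of the 6001 bases within 3 kb of its start, 4930 were covered with 500 EMPs and all 6001 with 15000 EMPs, the highest value among the members in the 500-EMP list. Its body was covered over 44.4% and 84.2%.

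Hoxd13 (ENSMUSG00000001819, chr2:74668310-74671599), the gene of the digits and the genital tubercle, lay under 1 peak in each list. That peak took in 71% of the gene with 500 EMPs and 100% with 15000 EMPs. The start itself was 437 bp from the nearest 500-EMP peak and inside a 15000-EMP peak, whose edge was 63 bp before it. Around the start 4051 and 5576 of the 6001 bases were covered.

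Hoxd12 (ENSMUSG00000001823, chr2:74675013-74677705), which acts with Hoxd13 and Hoxd11 in the distal limb, was the 1 member with more of its body covered at the lower cell number. Its body was covered over 100% with 500 EMPs, where one peak included the whole gene, and over 89.9% with 15000 EMPs, where a break of 272 bp (chr2:74675582-74675853) fell inside it. Around its start the order was the reverse, 4108 against 5485 bases. Hoxd11 (ENSMUSG00000042499, chr2:74679557-74687016), which patterns the forearm and kidney together with its paralogs, was covered over 55.6% of its body by 6 peaks with 500 EMPs and over 89.2% by 3 peaks with 15000 EMPs. Its coding sequence went against its body, with 67.7% covered with 500 EMPs and 45.8% with 15000 EMPs.

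Hoxd10 (ENSMUSG00000050368, chr2:74691924-74695105) and Hoxd9 (ENSMUSG00000043342, chr2:74697727-74700208), which serve the lumbar spinal cord and the limbs, both had their starts under a peak in both lists. Hoxd10 was covered over 79.4% of its body with 500 EMPs and 91.5% with 15000 EMPs. Hoxd9 was covered over 63.4% and 86.7%. Around the starts, 4778 and 5731 bases were covered at Hoxd10 and 4074 and 5671 at Hoxd9. At Hoxd9 the 500-EMP peak over the start was only 333 bp wide (chr2:74697583-74697915).

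Hoxd8 (ENSMUSG00000027102, chr2:74704615-74707933), a gene of the central group, had no 500-EMP peak within 598 bp of its start. Around the start 2845 bases were covered with 500 EMPs and 5159 with 15000 EMPs, the lowest value among the members in the 15000-EMP list. Its 3 coding transcripts start within a short stretch, and only the first of these starts was under a 15000-EMP peak, the other two being 130 and 253 bp from one.

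Hoxd4 (ENSMUSG00000101174, chr2:74711929-74729160) and Hoxd3 (ENSMUSG00000079277, chr2:74711927-74748442), genes of the hindbrain and the neck, share their most upstream start in GENCODE, so their values there are not separate measurements. That start lay 546 to 548 bp from a 500-EMP peak and 46 to 48 bp from a 15000-EMP peak, in a break of 309 bp (chr2:74711882-74712190). For Hoxd4 that start belongs to a noncoding transcript. The starts of its coding transcripts, at chr2 positions 74721978 and 74727074, were 917 and 703 bp from a 500-EMP peak and inside a 15000-EMP peak. The Hoxd4 body was covered over 30.2% and 62.1%, the lowest share in each list, and it holds the long break described above. The Hoxd3 body, 36516 bp long, was covered over 51.9% and 79.2%. Later coding starts of Hoxd3, at chr2 positions 74736515, 74739619 and 74745674, were inside a 15000-EMP peak. Another, at 74732913, was 68 bp from one. With 500 EMPs only the start at 74745674 was inside a peak.

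Hoxd1 (ENSMUSG00000042448, chr2:74762980-74765142), the most anterior member, known in the mouse for its part in sensory neurons, differed most between the lists. All of its 2163 bases lay under a single peak of 6037 bp with 15000 EMPs, against 764 bases (35.3%) under 2 peaks with 500 EMPs. Of its coding sequence, 20 of 984 bases were covered with 500 EMPs and 984 with 15000 EMPs. Around its start the values were 2546 and 5724 bases, a difference of 3178, the largest among the members.

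**Figure D3:**
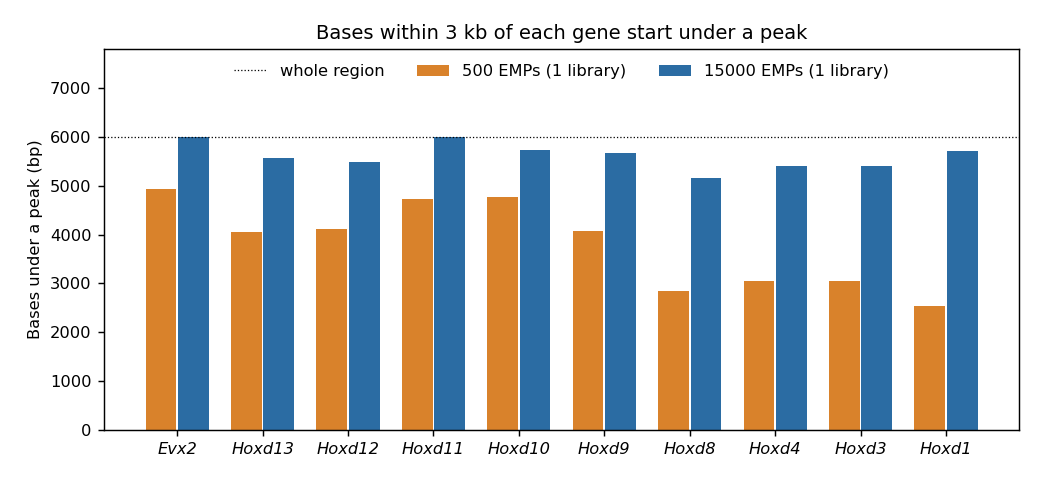
Bases under a peak among the 6001 bases within 3 kb of each member's start, with 500 EMPs (orange) and 15000 EMPs (blue), 1 library each and hence without error bars; the dotted line marks full coverage. The 15000-EMP bar is higher for all 10 members, and the 500-EMP bars from Hoxd8 to Hoxd1 lie below those from Evx2 to Hoxd9.

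Ordered along the chromosome, the members fell into 2 groups in the 500-EMP list. Around the starts of the 6 genes from Evx2 to Hoxd9, 4051 to 4930 bases were covered, and around those of the 4 genes from Hoxd8 to Hoxd1, 2546 to 3061, so that the groups did not overlap. Hoxd3 and Hoxd4 share a start and hence a value, so the second group holds fewer separate values than genes. With 15000 EMPs the ranges were 5485 to 6001 and 5159 to 5724 bases and overlapped. Over the sequence itself, 65.1% of the 47.2 kb from Evx2 to the end of Hoxd9 and 50.8% of the 64.9 kb from there to the end of Hoxd1 were covered with 500 EMPs, and 92.8% and 83.6% with 15000 EMPs. This division was chosen with the values in view and is given without a test.

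All 10 members had an annotated peak within 3 kb of the gene in both tables. That distance was taken to the nearer end of the gene, not to its start alone. Of 21938 protein-coding genes, 9.73% had such a peak with 500 EMPs and 16.7% with 15000 EMPs. The count for the members' starts was lower. A GENCODE gene start was inside a peak for 5 of 10 members with 500 EMPs (Evx2, Hoxd12, Hoxd11, Hoxd10 and Hoxd9), against 1.40% of all protein-coding genes. With 15000 EMPs it was so for 8 of 10, all but Hoxd3 and Hoxd4, against 8.63%. Counted over the 18 different starts of the members' protein-coding transcripts, 7 were under a peak with 500 EMPs and 14 with 15000 EMPs, and 4 were under a peak in neither list. Over all protein-coding genes the median of the bases covered within 3 kb of the start was 0 in both lists. The lowest member value was reached by 1.24% of these genes with 500 EMPs and by 2.28% with 15000 EMPs. Neighbouring members share peaks and, for Hoxd3 and Hoxd4, a start, so they are not 10 independent observations.

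**Figure D4:**
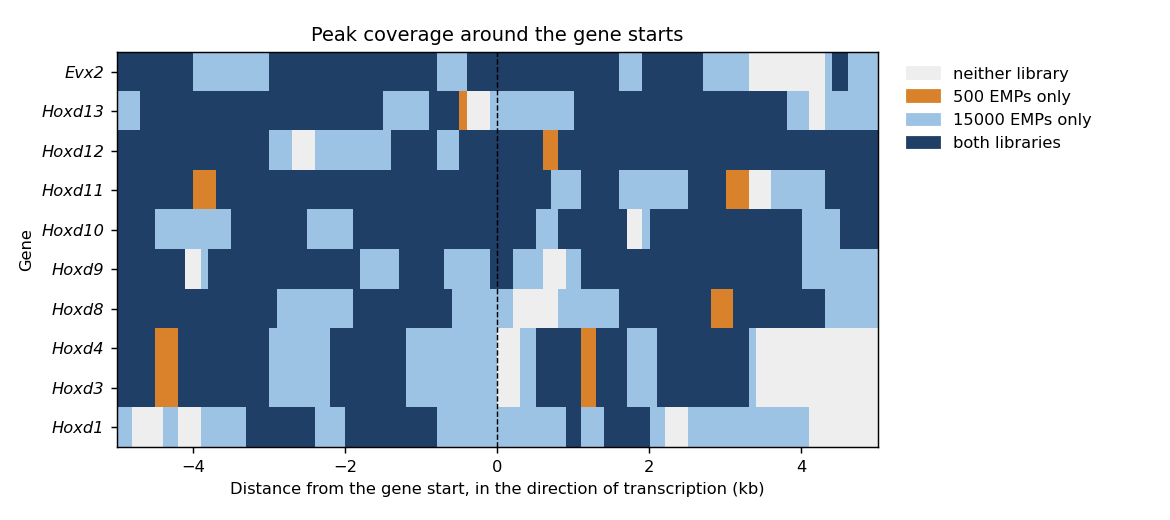
Bins of 100 bp from 5 kb before to 5 kb after each member's start, in the direction of transcription, coloured by the list whose peaks covered at least 50 bp of the bin; the dashed line is the start. The starts of Hoxd13, Hoxd8, Hoxd3, Hoxd4 and Hoxd1 lie outside the 500-EMP peaks, and Hoxd3 and Hoxd4 share an uncovered break at the start.

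With 500 EMPs, but not with 15000 EMPs, CpG islands were covered less than the rest of the region. Islands were built from windows of 200 bp and defined as stretches of at least 500 bp with a GC content above 50% and more than 0.6 of the expected CG, and 23 were found, 17.6% of the region. All 10 member starts lay in one, with Hoxd3 and Hoxd4 in the same one. The share of all gene starts that lie in such islands is not given, so this count has no background beside it. With 500 EMPs 39.1% of the island bases and 54.1% of the remaining bases were covered, and with 15000 EMPs 84% and 80.6%. No base was covered in 6 of the 23 islands with 500 EMPs and in 0 with 15000 EMPs. Of these 6, 2 held a member start, those of Hoxd8 (chr2:74704549-74706130) and Hoxd1 (chr2:74762632-74763761). In the island of Hoxd13 (chr2:74667611-74669027) 18.6% and 70% of the bases were covered, and in that of Hoxd3 and Hoxd4 (chr2:74711791-74712496) 3.12% and 56.2%. By contrast, the islands at the starts of Hoxd12 and Hoxd10 were covered over 100% with 500 EMPs.

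The density of CG also differed between the covered classes. Bases covered in both lists held 22.3 CG per kb, those covered with 15000 EMPs only held 32 per kb, and those covered in neither held 24.4 per kb. The 1767 bases covered with 500 EMPs only held 46.4 per kb, the highest density. The breaks of the 15000-EMP list were sorted by whether they touched an island. The 11 of 27 that did were 244 to 1036 bp long with a GC content of 68.7%. The other 16 had a GC content of 44.5%. As islands were defined by their GC and CG content, the direction of this difference was set by the sorting. GC content above 65% was found in 7 breaks, all of which touched an island. These lay before Hoxd13, inside Evx2, Hoxd11, Hoxd12, Hoxd9 and Hoxd8 and at the shared start of Hoxd3 and Hoxd4. Sequencing depth, alignment rate (both lower for 500 EMPs by the study's reporting summary), calling threshold, PCR cycles, read length and instrument also differed between the libraries, and their part in this pattern was not tested.

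By gene structure, coding sequence was covered least with 500 EMPs. Of the 10255 coding bases of the members 43.8% were covered with 500 EMPs, against 65.8% of other exonic bases, 53.9% of introns and 47.1% of the sequence outside the members. With 15000 EMPs the shares were 82.8%, 89.1%, 80.8% and 79%. The GC content of the coding bases was 63%, against 45.4 to 49% in the other classes.

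Coverage of the other genes inside the region ran from 0 to 100% with 500 EMPs and from 81.6 to 100% with 15000 EMPs. The lowest was the lincRNA gene Gm14426 (chr2:74754455-74755097), with 0 of 643 bases covered with 500 EMPs and all 643 with 15000 EMPs. The antisense gene Gm28793 was covered over 36.1% and 100%, and Gm28230, a protein-coding model that overlaps Hoxd3, over 64.7% and 93.2%. Mir10b (chr2:74726070-74726137), a microRNA gene inside the Hoxd4 and Hoxd3 gene bodies, lay under a peak in both lists, of 1592 bp with 500 EMPs and 6082 bp with 15000 EMPs. Its paralog Mir10a in the Hoxb cluster (chr11:96317165-96317274) was under a 15000-EMP peak of 1584 bp and under no 500-EMP peak. The mature 5p strands from RefSeq are shown because the pair carries one seed (bases 2 to 8, in capitals) from 2 clusters that the lists treated differently.
mmu-miR-10b-5p (Hoxd): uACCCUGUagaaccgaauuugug
mmu-miR-10a-5p (Hoxb): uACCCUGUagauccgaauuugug
Haglr, the long noncoding RNA gene that shares a promoter region with Hoxd1, was covered over 46.4% and 85.7%, and Hoxd3os1, antisense to Hoxd8 and the start of Hoxd3, over 53.2% and 81.6%.

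The authors' tables gave Hoxd3 and Hoxd4 fewer rows than there were peaks over them. Of the 53 peaks with 500 EMPs, 34 name a member and 19 name only Mir10b, Gm14424 or Hoxd3os1, although 17 of these 19 lie in a member gene in GENCODE. With 15000 EMPs 18 peaks name a member and 10 name only one of these genes or Haglr, 7 of them in a member gene. For Hoxd3, peaks that name no member held 17792 covered bases of its body with 500 EMPs and 26082 with 15000 EMPs, of 18968 and 28922 covered bases in all. Hoxd3 thus had 2 rows and 1 row in the tables while 18 and 9 peaks lay over it, and Hoxd4 had 1 and 2 rows with 7 and 5 peaks over it. By contrast, Hoxd1 had 4 and 2 rows with 2 peaks and 1 peak over it, and Evx2 had 10 and 5 rows with 4 and 2 peaks over it. Rows per gene and peaks over the gene were therefore different counts.

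Set beside the other Hox clusters, defined in the same way, the Hoxd cluster lay in the middle of the coverage. Peaks covered 54.7% of the Hoxa region, 34% of the Hoxb region and 76% of the Hoxc region with 500 EMPs, and 79.1%, 59.2% and 96.6% with 15000 EMPs. The regions differed in length, 183 kb at Hoxa, 194 kb at Hoxb and 136 kb at Hoxc against 132 kb at Hoxd. Their longest breaks differed too. With 500 EMPs these were 28148, 39264 and 2745 bp against 7651 bp at Hoxd, and with 15000 EMPs 11780, 17180 and 687 bp against 5208 bp. The share of the 15000-EMP coverage that was also covered with 500 EMPs was 66.2% for Hoxa, 53.7% for Hoxb and 76.3% for Hoxc, against 61.7% for Hoxd. The widest peak with 15000 EMPs was narrower over Hoxd, 11539 bp, than over Hoxa (27239 bp), Hoxb (29727 bp) and Hoxc (25335 bp). With 500 EMPs it was 5761 bp over Hoxd and 5741 bp over Hoxb, against 9946 bp over Hoxa and 10151 bp over Hoxc. The distance to the next peak also differed. At Hoxc it was under 1 kb on both sides in both lists, and at Hoxb at most 32.2 kb. At Hoxa it was 963 and 877 kb with 500 EMPs, further than at Hoxd, and 41.1 and 742 kb with 15000 EMPs. These are values of 1 region in 1 library each, without a test.

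The lower share in CpG islands at the low cell number was seen in each of the 4 clusters. With 500 EMPs the share of island bases covered was below that of the remaining bases, at 39.1% against 54.1% in Hoxd, 44.1% against 57% in Hoxa, 27.3% against 34.7% in Hoxb and 56.9% against 78.6% in Hoxc. With 15000 EMPs the islands were covered more than the rest in Hoxd, Hoxa and Hoxb, and less in Hoxc, 91.5% against 97.3%.

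**Figure D5:**
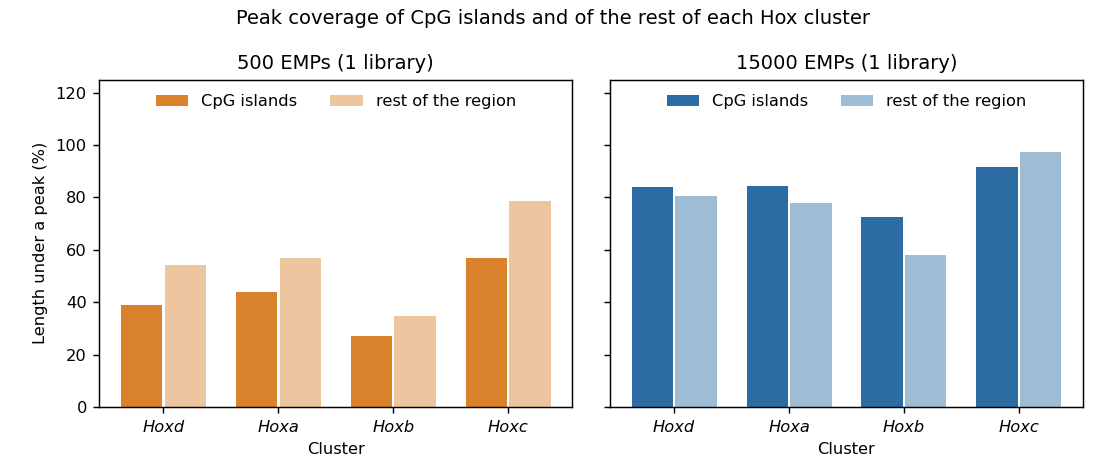
Share of the bases under a peak in CpG islands (dark) and in the rest (light) of the 4 Hox clusters, with 500 EMPs at the left and 15000 EMPs at the right, 1 library each. With 500 EMPs the dark bar is below the light bar in all 4 clusters; with 15000 EMPs it is so only in Hoxc.

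Paralogs, genes of the same number in different clusters, spread more widely at Hoxd3 and Hoxd4 than at Hoxd13. The spread with 500 EMPs was also wide from Hoxa9 (1379) to Hoxb9 (5105) and from Hoxc10 (2213) to Hoxa10 (6001). With 15000 EMPs the paralogs numbered 9 and 10 lay between 5671 and 6001. Within 3 kb of the start, Hoxd1 had 2546 covered bases with 500 EMPs and 5724 with 15000 EMPs, against 1846 and 4252 at Hoxb1. Hoxd3 had 3061 and 5404, against 5399 and 6001 at Hoxa3 and 0 and 2870 at Hoxb3. Hoxd4, which shares those values with Hoxd3, stood beside Hoxa4 (4176 and 4796), Hoxb4 (1040 and 2274) and Hoxc4 (4317 and 6001). Hoxd13, with 4051 and 5576, had the lowest 500-EMP value of its group, whose others ranged from 4224 at Hoxa13 to 4869 at Hoxb13. With 15000 EMPs it lay above Hoxa13, at 4605, and below Hoxc13 and Hoxb13, at 5685 and 6001. Evx2, with 4930 and 6001, stood beside Evx1, its paralog at the end of the Hoxa cluster, with 5217 and 5505.

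For the other genes of the system, the same count of an annotated peak within 3 kb of the gene, at either end of it, was made. It was met by 30 of the other 31 genes of the Hox clusters and Evx1 with 500 EMPs, all but Hoxb3, and by 31 with 15000 EMPs. Among 9 genes for Hox cofactors, the Meis, Pbx and Pknox proteins that bind DNA with Hox proteins, 2 met it with 500 EMPs (Meis2 and Pknox2) and 3 with 15000 EMPs (Meis3 as well). None of 11 genes that mark EMPs and blood cells, such as Kit, Runx1 and Gata1, met it in either list, while 2 and 4 of 8 endothelial genes did. Over all protein-coding genes the shares were 9.73% and 16.7%, so a count of 0 among 11 genes is near the background, and with lists of this size these counts do not check the cell type.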

How the data were processed

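H3K27me3 CUT&RUN peak lists of 2 libraries, named by their labels, were used. The authors mapped reads to mm10 with Bowtie2 2.2.1. Peak calling by the authors used MACS2 2.1.2 in broad mode, which merges nearby enriched stretches, on each library alone with its IgG library as background. The calling thresholds come from the methods. The study's reporting summary heads its commands with the same thresholds but names the input of the opposite library inside each. It also gives a lower depth and alignment rate for 500 EMPs; the deposited lists hold positions in bp without counts or scores, so depth was unknown from the files and uncorrected. The deposited tables pair peaks with genes and a distance in bp.

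Overlaps, covered bases and distances were computed in Python 3.11.15 on GENCODE vM21 gene models and the GRCm38 genome, and the interval steps were tested on simulated data. No peak ran past the end of chromosome 2. Other settings tried were distance limits, region size, overlap and joining of peaks. Naming covered all 10 members, the 2 widest peaks of each list and the longest breaks, with other genes only where they lay in or next to the region or in a comparison cluster or list; not every such gene is named. Members and lists were chosen with earlier results of these data known. Some paralog and gene list results are not reported here.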

Additional observations from a re-analysis of the deposited data

How the results depend on the processing

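Of 34 alternatives over 8 results, 27 stayed within 1.5 times the value given or, for the overlap of 500-EMP peaks with the other list, within its interval. With a gene start inside a peak required, members with a peak fell to 5 with 500 EMPs. Joining peaks within 1 kb left 16 peaks with 500 EMPs and 4 with 15000 EMPs, and joining within 3 kb left 3 and 2. Joining within 3 kb also raised the covered length with 500 EMPs to 106457 bp, near the 118902 bp reached with 15000 EMPs. With at least 50% of both peaks shared, 7.55% of 500-EMP peaks had a counterpart. No paired analysis was possible because each group had 1 library and no test was run. Peak positions without counts do not show whether an uncovered base lacked the mark or lacked reads.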
